A study of Mus musculus with 3 samples.

Results

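Cluster 12 is 1 of the 15 expression clusters, numbered 0 to 14, that the authors assigned to a pool of sorted mouse thymocytes. All cells carrying that cluster number were taken, which gave 362 of 12208 cells, or 2.97% of the pool (exact 95% interval 2.67% to 3.28%). They were divided by the hashtag that records each cell's sorted population. The pool came from 8 female C56Bl/6 mice of 7 to 12 weeks that carried the Tcliβ transgene, a single functional TCRα allele (TCRα+/-) and the Foxp3-GFP reporter. All 6 populations were gated on surface Vα2, and all but the first came from thymus depleted of CD8+ cells. The earliest were double-positive CD4+CD8+ thymocytes, written DP, and then CD4 single-positive thymocytes that lacked CD25, Foxp3 and CD73, written CD4 SP. Progenitors of Tregs were sorted as CD25+ (CD25+ TRP) or as low for Foxp3 (Foxp3lo TRP), and Tregs as negative (CD73- Treg) or positive for CD73 (CD73+ Treg).

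T cells meet antigen through a receptor made of an α and a β chain. The α chain is assembled in double-positive thymocytes by joining a V segment (TRAV) to a J segment (TRAJ), and the joint encodes CDR3α, the loop that contacts the antigen peptide. In these mice the β chain was fixed by the transgene, so receptors differed mainly in CDR3α. Cells whose receptors bind self peptides can enter the regulatory T cell (Treg) lineage, through progenitors that express CD25 without Foxp3 or low Foxp3 without CD25. CD73, a surface enzyme that produces adenosine, is carried by part of the thymic Tregs.

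Cells of all 8 mice were mixed, the labels do not say which mouse a cell came from, and each population was sorted and tagged once. There was therefore no replicate and no test, and intervals cover the counting of cells only. Cells of 1 clone are not independent, so these intervals are too narrow for clone-dependent shares. The matrix rows carry no gene name, so cluster 12 keeps its number, and neither its cell type nor the sorted populations were checked by markers. How doublets were handled, and whether receptor transcripts entered the authors' clustering, is not given in the labels.

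The CDR3α that were most frequent in cluster 12 are shown first, because the repertoire results below turn on them. They were taken from the 270 cluster 12 cells with exactly 1 productive α chain. Each line gives a name, which is the amino acid sequence for all but the leading TRAJ13 CDR3α, then the nucleotide sequence read 5′ to 3′ from the conserved cysteine codon to the last codon of CDR3. Capitals mark the bases that match the germline TRAJ segment without a break to the 3′ end, and lower case marks the V segment and the added or unmatched bases of the joint.
Leading CDR3α, with TRAJ13: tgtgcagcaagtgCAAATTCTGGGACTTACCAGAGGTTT
CAASADYSNNRLTL with TRAJ7: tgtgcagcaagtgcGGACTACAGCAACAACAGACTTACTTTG
CAASADYSNNRLTL with TRAJ7, form b: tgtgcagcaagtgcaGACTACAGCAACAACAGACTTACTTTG
CAASADYSNNRLTL with TRAJ7, form c: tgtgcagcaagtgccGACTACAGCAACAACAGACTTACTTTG
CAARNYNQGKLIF with TRAJ23: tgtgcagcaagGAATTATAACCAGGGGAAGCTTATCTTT
CAASAGYSNNRLTL with TRAJ7: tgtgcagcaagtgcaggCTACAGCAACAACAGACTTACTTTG
CAASAGYSNNRLTL with TRAJ7, form b: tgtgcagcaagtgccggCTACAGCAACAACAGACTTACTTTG
CAASAGYSNNRLTL with TRAJ7, form c: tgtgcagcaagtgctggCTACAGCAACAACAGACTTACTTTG
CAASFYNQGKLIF with TRAJ23: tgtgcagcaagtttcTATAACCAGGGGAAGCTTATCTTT

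The TRAJ13 sequence had 1 nucleotide form in all 15 of its cluster 12 cells. CAASADYSNNRLTL was encoded in 8, 3 and 1 cluster 12 cells by the forms in the order shown, and CAASAGYSNNRLTL in 7, 1 and 1. Both TRAJ7 amino acid sequences were thus encoded by 3 different joints within cluster 12. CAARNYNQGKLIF had 4 nucleotide forms in cluster 12, of which the one shown was in 6 of 11 cells. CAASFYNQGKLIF had 2, and the form shown was in 3 of 4 cells.

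Cluster 12 was spread over the 5 populations past the double-positive stage and was nearly missing from DP. It held 1 of 3021 DP cells, or 0.0331% (0.000838% to 0.184%). In CD4 SP it held 51 of 2436 cells, or 2.09% (1.56% to 2.74%). In CD25+ TRP it held 105 of 2503 cells, or 4.19% (3.44% to 5.06%). Its share was highest in Foxp3lo TRP, at 109 of 1393 cells or 7.82% (6.47% to 9.36%). In CD73- Treg it held 22 of 454 cells, or 4.85% (3.06% to 7.24%), and in CD73+ Treg 74 of 2401 cells, or 3.08% (2.43% to 3.85%). The interval of Foxp3lo TRP lay above those of DP, CD4 SP, CD25+ TRP and CD73+ Treg, and overlapped that of CD73- Treg. The intervals of CD25+ TRP, CD73- Treg and CD73+ Treg overlapped one another.

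**Figure D1:**
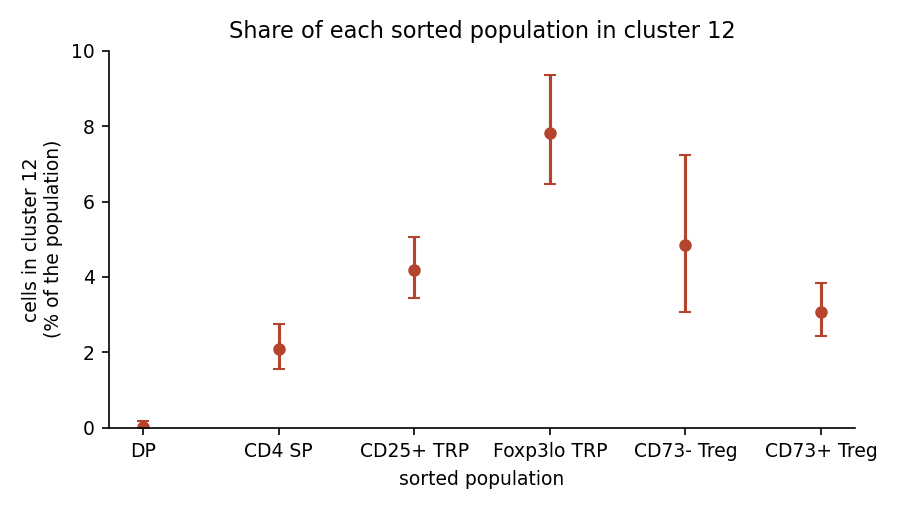
Percent of the cells of each sorted population (x axis, by stage) that fell in cluster 12 (y axis). Points are shares and bars exact 95% intervals that cover counting only; the share in Foxp3lo TRP was 7.82% and that in DP 0.0331%.

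Seen from within the cluster, Foxp3lo TRP gave 30.1% of its cells and CD25+ TRP 29.0%. CD73+ Treg gave 20.4%, CD4 SP 14.1%, CD73- Treg 6.08% and DP 0.276%. With DP left out on both sides, Foxp3lo TRP was 30.2% of cluster 12 and 15.2% of the pool, and CD25+ TRP 29.1% of cluster 12 and 27.2% of the pool. On the same basis CD73- Treg was 6.09% of cluster 12 and 4.94% of the pool. CD73+ Treg was 20.5% of cluster 12 and 26.1% of the pool, and CD4 SP 14.1% of cluster 12 and 26.5% of the pool. The plot of cluster 12 shares by population shows the same values as percent of each population. DP, with 1 cell, is left out of the comparisons within populations below. The numbers of cells tagged per population were set by the sort and do not give their abundance in the thymus.

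In 3 of the 5 populations the depth of cluster 12 was close to that of the other cells. Cluster 12 cells had a median of 2679 UMIs (interval of the median 2582 to 2783, quartiles 2208 and 3373), against 2404 in all other cells, where DP is the shallowest population. In CD4 SP the medians were 2743 UMIs in cluster 12 and 2717 in the other cells, and in CD25+ TRP 3146 and 3250.5. In CD73+ Treg they were 2599.5 UMIs in cluster 12 and 2685 in the other cells. Cluster 12 was deeper in Foxp3lo TRP, at 2336 UMIs against 2088 in the other cells, and in CD73- Treg, at 3040.5 against 2543.5. The median number of gene rows expected at 1000 UMIs was 593 in cluster 12 (361 cells) and 600 in the other cells, which include DP at 687. Within populations, cluster 12 and the other cells had 595 and 584 in CD4 SP, and 602 and 596 in CD25+ TRP. The values were 591 and 584 in Foxp3lo TRP, 590 and 576 in CD73+ Treg, and 575 and 576 in CD73- Treg. Of the 362 cells, 14 (3.87%) were among the top 5% of their population by UMIs, and 9 of these 14 were Foxp3lo TRP.

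A productive TCRα chain was recovered more often in cluster 12 than in the other cells. Cluster 12 had one in 286 of 362 cells, or 79.0% (74.4% to 83.1%), against 59.3% (58.4% to 60.2%) of all other cells. When the other cells were weighted to the population make-up of cluster 12 their share was 63.2% (62.1% to 64.3%), which left a difference of 15.9 percentage points. The direction was the same in each of the 5 populations. In CD4 SP the share was 86.3% in cluster 12 (73.7% to 94.3%) and 79.4% in the other cells (77.7% to 81.0%). In CD25+ TRP it was 85.7% in cluster 12 (77.5% to 91.8%) and 73.9% in the other cells (72.1% to 75.6%). In Foxp3lo TRP it was 76.1% in cluster 12 (67.0% to 83.8%) and 59.6% in the other cells (56.8% to 62.3%). In CD73- Treg it was 68.2% in cluster 12 (45.1% to 86.1%) and 50.7% in the other cells (45.9% to 55.5%). The gap was widest in CD73+ Treg, with 71.6% in cluster 12 (59.9% to 81.5%) and 46.0% in the other cells (43.9% to 48.0%). Of these 2327 other cells, 1045 were in cluster 3, at 37.0%. That was the lowest of the 11 clusters with at least 20 CD73+ Treg cells. Intervals did not overlap in CD25+ TRP, Foxp3lo TRP and CD73+ Treg, and overlapped in CD4 SP and CD73- Treg.

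**Figure D2:**
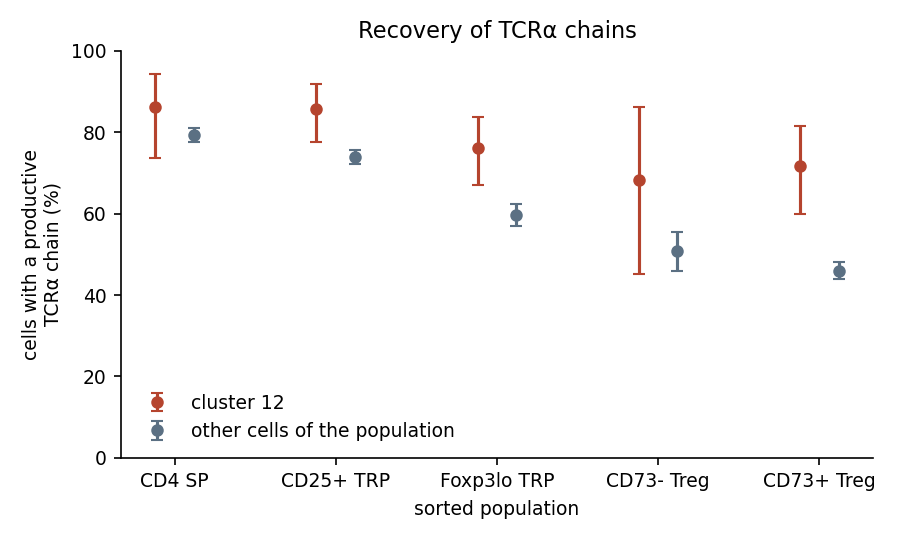
Percent of cells with a productive TCRα chain (y axis) in cluster 12 and in the other cells of the same sorted population (x axis). Points are shares and bars exact 95% intervals that cover counting only; in CD73+ Treg the shares were 71.6% in cluster 12 and 46.0% in the other cells.

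Recovery was also set out by UMI quartile of the population, since a deeper cell gives more chance to see the chain. From the lowest to the highest quartile, recovery in cluster 12 was 74.3%, 77.2%, 78.5% and 85.2%. In the other cells, weighted by population, it was 52.7%, 64.4%, 63.2% and 72.5%. Cluster 12 was higher in every quartile, and its interval lay above the weighted one in each. Among clusters with at least 20 cells in a population, cluster 12 ranked 1 of 8 in CD4 SP, 1 of 9 in CD25+ TRP and 1 of 7 in Foxp3lo TRP. The next were cluster 11 in CD4 SP, at 84.3% (76.6% to 90.3%), and cluster 2 in CD25+ TRP, at 81.5% (77.2% to 85.3%). In Foxp3lo TRP it was cluster 1, at 67.3% (57.1% to 76.5%). Each of these intervals overlapped that of cluster 12, so the ranks do not set it apart from the next cluster. Cluster 12 ranked 2 of 6 in CD73- Treg, behind cluster 7, and 3 of 11 in CD73+ Treg, behind clusters 11 and 14. Where a chain was found, its UMI count was similar, with a median of 19 in cluster 12 (quartiles 14 and 26) and 18 in the other cells.

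Cells with 2 productive α chains were 16 of the 286 cluster 12 cells with a productive chain, or 5.59% (3.23% to 8.93%), against a weighted 4.81% (4.18% to 5.44%) of the other cells. The interval of cluster 12 held the whole interval of the other cells. Without the top 5% of cells of each population by UMIs, the share was 9 of 273 or 3.30% in cluster 12 (1.52% to 6.17%) and a weighted 3.06% in the other cells (2.55% to 3.57%). A T cell can carry an α chain from each allele, but only 1 α allele was functional here, and a droplet with 2 cells gives the same picture. In cluster 12 they were 7 of 83 cells from Foxp3lo TRP, 4 of 44 from CD4 SP, 3 of 90 from CD25+ TRP, 1 of 15 from CD73- Treg and 1 of 53 from CD73+ Treg. Their median UMI count was 4667, against 2724 in the cluster 12 cells with 1 chain, and 7 of the 16 were in the top 5% of their population by UMIs. The lower of the 2 chains had 3 to 17 UMIs (median 6.5) and the higher a median of 23.5. In 15 of the 16 cells both chains used the TRAV14 family, which encodes Vα2. The part of doublets in these cells was not tested. A nonproductive α contig, which cannot encode a full chain, was found in 13 of 362 cluster 12 cells (3.59%, 1.93% to 6.06%) and a weighted 2.42% of the other cells (2.07% to 2.77%). The library was enriched for α chains, and a productive β chain was read in 41 cluster 12 cells (11.3%, 8.25% to 15.1%), against a weighted 9.28% (8.64% to 9.92%) of the other cells. TRBV19 was used in 38 of these 41 cluster 12 cells, and a β chain with another V segment was read in 3 cells.

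The 270 cluster 12 cells with exactly 1 productive α chain carried 194 different CDR3α, and 165 of these were seen in 1 cell. The other 29 were shared by 105 cells, and 21 of the 194 were found in cluster 12 cells of 2 or more populations. The same number of other cells per population would be expected to hold 217 different CDR3α, above the 194 of cluster 12. Neither number has an interval, and the difference was not tested. At 200 cells the expected number was 150 in cluster 12. It was 154 in the other CD73+ Treg cells, 156 in CD4 SP, 160 in Foxp3lo TRP, 168 in CD25+ TRP, 168 in CD73- Treg and 193 in DP. A CDR3α seen nowhere outside cluster 12 was carried by 60 of the 270 cells (22.2%, 17.4% to 27.7%). The matching share for an equal number of other cells was not computed, so this count does not set cluster 12 apart.

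The 5 most frequent CDR3α were held by 51 of the 270 cells (18.9%). The leading CDR3α, with TRAJ13, was in 15 cells or 5.56% (3.14% to 9.0%), against a weighted 3.33% (2.79% to 3.87%) of the other cells. Its share of cluster 12 cells was highest in CD4 SP, at 7 of 40 (17.5%, 7.34% to 32.8%), against 5.86% of the other cells (4.82% to 7.04%). The cluster 12 interval overlapped that of cluster 12 cells in Foxp3lo TRP, 2.17% to 14.7%. These 7 cells also helped to make the sequence the most frequent. A further 3 of 87 CD25+ TRP and 5 of 76 Foxp3lo TRP cells of cluster 12 had it. None of the 14 CD73- Treg or 52 CD73+ Treg cells of cluster 12 did, which allows up to 21.4% and 5.77%, and its shares outside cluster 12 were 0.478% and 0.398% in those populations.

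CAASADYSNNRLTL was in 12 cells or 4.44% (2.32% to 7.63%), against a weighted 1.81% (1.44% to 2.19%) of the other cells, and these intervals did not overlap. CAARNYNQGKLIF was in 11 cells or 4.07% (2.05% to 7.17%), against a weighted 2.65% (2.16% to 3.14%). CAASAGYSNNRLTL was in 9 cells or 3.33% (1.54% to 6.23%), against a weighted 1.75% (1.40% to 2.11%). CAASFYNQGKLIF was in 4 cells or 1.48% (0.405% to 3.75%), against a weighted 0.374% (0.194% to 0.555%), and shared its rank with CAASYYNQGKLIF, also in 4 cells. All 5 had a higher share in cluster 12, which is partly fixed by choosing them as its most frequent sequences.

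The TRAJ7 sequences CAASADYSNNRLTL and CAASAGYSNNRLTL differ by 1 residue and were counted together, a choice made after their values were seen. They were in 21 of 270 cluster 12 cells, or 7.78% (4.88% to 11.6%), against a weighted 3.57% (3.06% to 4.07%) of the other cells. In CD25+ TRP they made up 8 of 87 cluster 12 cells (9.20%, 4.05% to 17.3%) and 2.54% of the other cells (1.84% to 3.4%). In Foxp3lo TRP they made up 4 of 76 cluster 12 cells (5.26%, 1.45% to 12.9%) and 4 of 728 other cells (0.549%, 0.15% to 1.40%). Intervals did not overlap in either progenitor population, though both sequences had been picked as frequent in cluster 12. In Foxp3lo TRP the gap was only from 1.40% to 1.45%, and all 4 cluster 12 cells carried CAASADYSNNRLTL. In CD25+ TRP the intervals of CAASADYSNNRLTL alone overlapped and those of CAASAGYSNNRLTL alone did not. In CD73+ Treg the shares were close, with 7 of 52 cluster 12 cells (13.5%, 5.59% to 25.8%) and 12.4% of the other cells (10.5% to 14.6%). In CD73- Treg they were in 2 of 14 cluster 12 cells (14.3%, 1.78% to 42.8%) and 3.83% of the other cells (1.67% to 7.40%). In CD4 SP neither sequence was seen, in 0 of 40 cluster 12 cells, which allows up to 7.50%, and in 0 of 1809 other cells, which allows up to 0.166%.

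**Figure D3:**
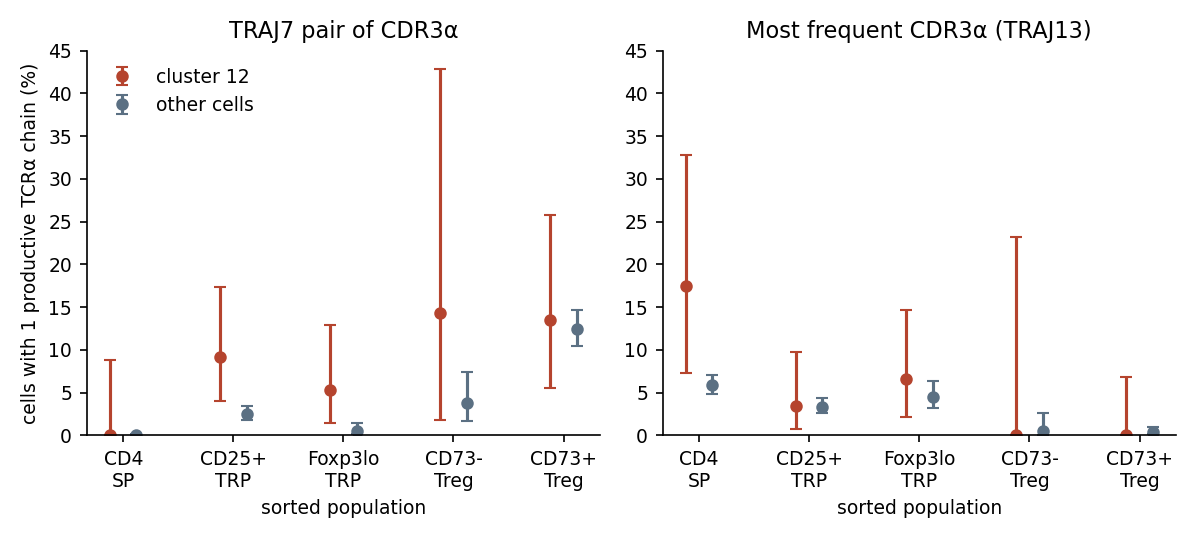
Percent of cells with 1 productive TCRα chain (y axis) that carried either TRAJ7 sequence (left) or the TRAJ13 sequence (right), in cluster 12 and in the other cells of each sorted population (x axis). Bars are exact 95% intervals that cover counting only; the TRAJ7 share in CD25+ TRP was 9.20% in cluster 12 and 2.54% in the other cells.

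TRAJ use was compared over the 43 segments seen. The segments lie on chromosome 14 of GRCm38, plus strand, within the TCRα locus, and each is an annotated J gene. TRAJ23 (chr14:54196081-54196140) was the most used in cluster 12, in 34 of 270 cells or 12.6% (8.88% to 17.2%), against 7.03% (6.43% to 7.67%) of all other cells. TRAJ7 (chr14:54211470-54211528) was in 8.52% of cluster 12 cells (5.48% to 12.5%) and 4.20% of all other cells (3.73% to 4.71%). These 2 of 43 segments (4.65%) were higher in cluster 12 with intervals apart, and 1 of 43 (2.33%) was lower. The lower one was TRAJ57 (chr14:54158505-54158569), in 1 cell or 0.370% (0.00938% to 2.05%), against 2.56% (2.20% to 2.97%) of all other cells.

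When the other cells were weighted by population, 0 of 43 segments (0%) were higher with intervals apart and TRAJ57 alone (2.33%) was lower, with a weighted 2.64% (2.15% to 3.13%) in the other cells. The weighted shares were 8.25% for TRAJ23 and 4.98% for TRAJ7, and their upper bounds of 9.08% and 5.58% passed the lower bounds of cluster 12. Of the 23 TRAJ7 cells of cluster 12, 21 carried the pair of sequences described above. With each different CDR3α counted once, and no weighting by population, TRAJ7 was 4 of 194 or 2.06% in cluster 12 and 1.98% in the other cells. TRAJ23 was spread over 16 different CDR3α, or 8.25% of the 194 (4.79% to 13.0%), against 4.56% in the other cells (3.86% to 5.35%). TRAJ57 was then 0.515% in cluster 12 (0.0130% to 2.84%) and 2.11% in the other cells (1.64% to 2.67%), so the intervals of TRAJ7, TRAJ23 and TRAJ57 all overlapped. The call on TRAJ57 rested on its 1 cell. TRAJ13 (chr14:54205741-54205797) was in 8.89% of cluster 12 cells and a weighted 8.64% of the others. TRAJ26 (chr14:54194490-54194549) was in 8.89% of cluster 12 cells and a weighted 7.22% of the others. Counted once per CDR3α, TRAJ26 was 19 of 194 or 9.79% in cluster 12 (6.00% to 14.9%) and 5.04% in the other cells (4.30% to 5.85%). It was the 1 segment of 43 with intervals apart on that unweighted count. DP held 1091 of the 3177 different CDR3α of the other cells and 1 of the 194 in cluster 12. TRAJ26 was in 3.32% of the other DP cells, and the part of population make-up in this call was not tested. TRAJ12 (chr14:54206553-54206610) was in 5.56% of cluster 12 cells and a weighted 5.12% of the others. Segments numbered 40 or higher, which lie on the V side, were in 14.1% of cluster 12 cells (10.2% to 18.8%) and a weighted 16.4% of the others (15.3% to 17.5%).

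On the V side, 266 of the 270 cells used the TRAV14 family, the genes behind the Vα2 gate. The most used copy was TRAV14D-3-DV8 (chr14:53078452-53079045), in 92 cells or 34.1% (28.4% to 40.1%), against a weighted 27.1% (25.8% to 28.4%) of the other cells. Of these 92 cells, 32 carried 1 of the 5 most frequent CDR3α. Among the 219 cells without those 5 sequences the share was 27.4% in cluster 12 (21.6% to 33.8%) and a weighted 23.7% in the other cells (22.4% to 25.1%). TRAV14 copies are near-identical, and the assignment was left as deposited. CDR3α length was 13.2 ± 1.13 residues in cluster 12 (SD over 270 cells) and 13.4 ± 1.21 in the other cells (SD over 6712 cells).

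The repertoire of cluster 12 was then set against each population outside cluster 12. The Morisita index, which is near 1 when 2 repertoires hold the same sequences at the same frequencies, was 0.636 with CD4 SP, 0.737 with CD73- Treg and 0.801 with CD73+ Treg. It was 0.829 with CD25+ TRP, 0.802 with Foxp3lo TRP and 0.228 with DP. The order of these values depended on the measure. By nucleotide sequence with V and J gene the index was 0.554 with CD4 SP, 0.528 with CD73- Treg and 0.738 with CD73+ Treg. Without the 10 most frequent CDR3α it was 0.471 with CD4 SP, 0.956 with CD73- Treg and 0.700 with CD73+ Treg. The index with a population also counts cluster 12 cells of that same population, so sharing was counted again with these left out. Of the 230 cluster 12 cells from other populations, 86 (37.4%, 31.1% to 44.0%) had a CDR3α found in CD4 SP, against a weighted 42.9% (41.3% to 44.6%) of the other cells. With CD73- Treg the share was 34.0% in cluster 12 (28.2% to 40.1%) and a weighted 23% in the other cells (21.6% to 24.3%). With CD73+ Treg it was 41.3% in cluster 12 (34.7% to 48.1%) and a weighted 34.5% in the other cells (32.8% to 36.1%). Only the intervals for CD73- Treg were apart among these 3.

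With DP the share was 45% in cluster 12 (38.9% to 51.1%) and a weighted 33.1% in the other cells (31.7% to 34.5%), also apart. With CD25+ TRP it was 61.7% in cluster 12 (54.3% to 68.8%) and a weighted 52.8% in the other cells (50.9% to 54.6%). With Foxp3lo TRP it was 45.4% in cluster 12 (38.2% to 52.6%) and a weighted 38.8% in the other cells (37.4% to 40.3%). As a share of sequences, cluster 12 had 67 of its 194 CDR3α (34.5%) in common with CD4 SP, which is 7.24% of the 926 there. It had 29 (14.9%) in common with CD73- Treg, 16.6% of the 175 there, and 55 (28.4%) with CD73+ Treg, 8.90% of the 618 there.

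**Figure D4:**
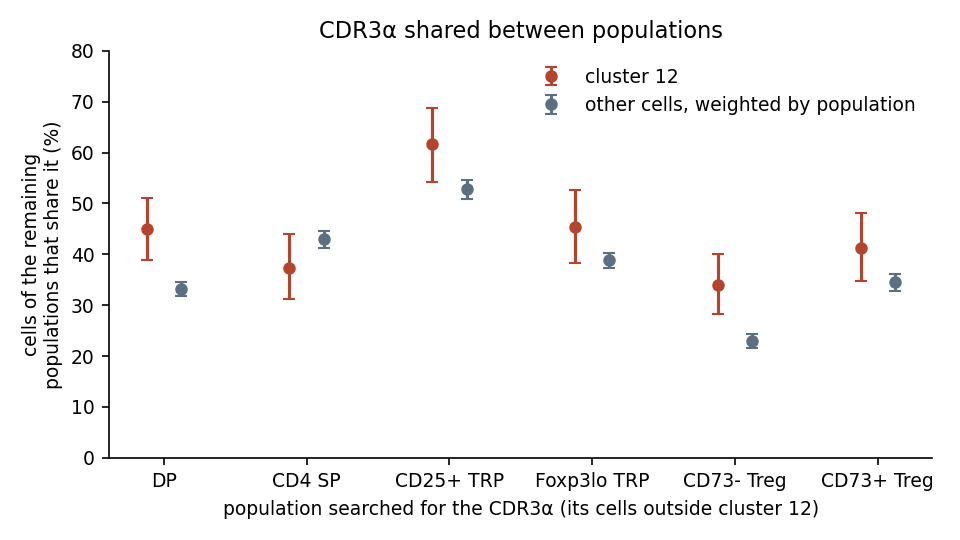
Percent of cells (y axis) from the remaining populations whose CDR3α was also found in the named population outside cluster 12 (x axis), for cluster 12 and for the other cells weighted by population. Bars are 95% intervals that cover counting only; with CD73- Treg the shares were 34.0% in cluster 12 and 23% in the other cells.

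Sharing was also split by the population of the cluster 12 cell, and most of these comparisons had overlapping intervals. CD25+ TRP had the most cluster 12 cells with 1 chain, which helps its intervals to separate. These 87 cells shared a CDR3α with CD4 SP in 33.3% (23.6% to 44.3%), against 49.6% (47.2% to 52.0%) of the other CD25+ TRP cells. They shared one with CD73- Treg in 33.3% (23.6% to 44.3%), against 21.3% (19.4% to 23.4%) of the other CD25+ TRP cells. With CD73+ Treg the share was 44.8% (34.1% to 55.9%), against 34.8% (32.6% to 37.2%) of the other CD25+ TRP cells, and the intervals overlapped. The Morisita index of the 87 cells with CD73+ Treg was 0.933, against 0.491 for the other CD25+ TRP cells. With CD4 SP it was 0.470, against 0.802. The index gives most weight to frequent sequences, and 8 of these 87 cells carried the TRAJ7 pair. The part of the pair in these values was not tested. The 87 cells held 72 different CDR3α, so the index rests on few repeats, and it has no interval here. For Foxp3lo TRP, cluster 12 cells shared a CDR3α with CD73- Treg in 40.8% (29.6% to 52.7%), against 26.0% (22.8% to 29.3%) of the other cells. For CD73+ Treg, cluster 12 cells shared one with CD25+ TRP in 65.4% (50.9% to 78.0%), against 47.2% (44.0% to 50.3%) of the other cells. The 40 CD4 SP cells of cluster 12 shared one with CD73- Treg in 27.5% (14.6% to 43.9%) and with CD73+ Treg in 37.5% (22.7% to 54.2%), against 14.2% (12.6% to 15.8%) and 30.0% (27.9% to 32.2%) of the other CD4 SP cells.

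Summed expression was compared within each population, between cluster 12 and the other cells, over gene rows that reached 50 CPM in 1 of these groups or both, where CPM is the share of a group's summed UMIs scaled to 1e6. The clusters were built from these genes, so the values are descriptions. In CD4 SP, 247 of 3250 gene rows (7.6%) were more than 2-fold higher in cluster 12 and 130 (4%) more than 2-fold lower. In CD25+ TRP, 117 of 3179 (3.68%) were higher and 132 (4.15%) lower. In Foxp3lo TRP, 101 of 3091 (3.27%) were higher and 42 (1.36%) lower. In CD73- Treg, with 22 cluster 12 cells, 344 of 3231 (10.6%) were higher and 330 (10.2%) lower, and in CD73+ Treg 219 of 3136 (6.98%) and 105 (3.35%). Higher rows were thus 51.0% of those past 2-fold in CD73- Treg, but 35.3% with trimmed-mean (TMM) scaling and 35.8% with median-of-ratios scaling. In CD73+ Treg they were 67.6%, and 56.2% with TMM scaling. Which direction held more rows also turned with other settings. In CD25+ TRP, 114 rows were higher and 84 lower with the deposited normalized values, and 110 and 88 without the top 5% of cells by UMIs. With a prior of 10 CPM the CD25+ TRP counts were 105 and 94. In CD73+ Treg, 409 were higher and 440 lower with rows from 20 CPM. TMM scaling moved the median log2 ratio of CD73- Treg to -0.11, against 0.06.

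The root-mean-square log2 ratio, a measure of how far apart the groups were over all rows, was 0.78 in CD4 SP, where counting error alone would give 0.46. It was 0.64 in CD25+ TRP (counting error 0.27) and 0.55 in Foxp3lo TRP (counting error 0.32). It was 0.74 in CD73+ Treg (counting error 0.38) and 1.06 in CD73- Treg (counting error 0.80). Every value was above its counting part, and the high value of CD73- Treg went with the high counting part of its few cells. The counting part holds no variation between cells, and the clusters were built from these genes. Values above it therefore follow from the design and test nothing. Weighted over populations the value was 0.68, with a counting part of 0.37. Across the 2436 gene rows measured in all 5 populations, the log2 ratios correlated between populations with a Pearson r of 0.29 to 0.62. Gene rows are not independent replicates. The comparisons used different cells, but the clusters were assigned to the whole pool, over all populations together, from these same genes. A positive correlation between populations was therefore built into the design, and these values do not show agreement between independent comparisons.

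A small set of gene rows was higher in cluster 12 in each of the 5 populations compared. Of the 2436 rows, 40 (1.64%) were more than 2-fold higher in all 5 populations and 0 (0%) more than 2-fold lower in all 5. With TMM or median-of-ratios scaling 36 of the 40 were higher in all 5, and none was added. With no filter on low values, 57 of 10802 rows were higher and 106 lower in all 5. A row could pass the 50 CPM filter through its level in cluster 12 alone. The 40 rows were picked by these same ratios, so their shares and folds are descriptions. These 40 rows took 2.13% of the UMIs of cluster 12 in CD4 SP, against 0.324% in the other cells, a 6.57-fold difference. In CD25+ TRP they took 1.72% in cluster 12 and 0.359% in the other cells, and in Foxp3lo TRP 1.65% and 0.295%. In CD73- Treg they took 1.72% in cluster 12 and 0.315% in the other cells, and in CD73+ Treg 2.19% and 0.367%. The folds in these populations were 4.79, 5.59, 5.45 and 5.95. The most abundant of the rows had 3147 to 4538 CPM in cluster 12 and 134 to 302 CPM in the other cells of the same populations.

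Per cell, the 40 rows took a median of 1.72% of the UMIs in cluster 12 (quartiles 1.15% and 2.51%, lowest 0.218%, highest 7.34%) and 0.255% in the other cells. The rows were chosen on these same cells, so the gap is a description. It was not a clean border, since 121 of the 11846 other cells (1.02%, 0.848% to 1.22%) lay above the cluster 12 median. Of these 121 cells, 46 were DP, 41 of them in cluster 6. By cluster, 32 of the 121 were in cluster 7 and 25 in cluster 2. Among the other clusters the highest medians were 0.411% in cluster 14, 0.389% in cluster 7 and 0.388% in cluster 6. The 1 DP cell of cluster 12 stood at 5.25%.

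**Figure D5:**
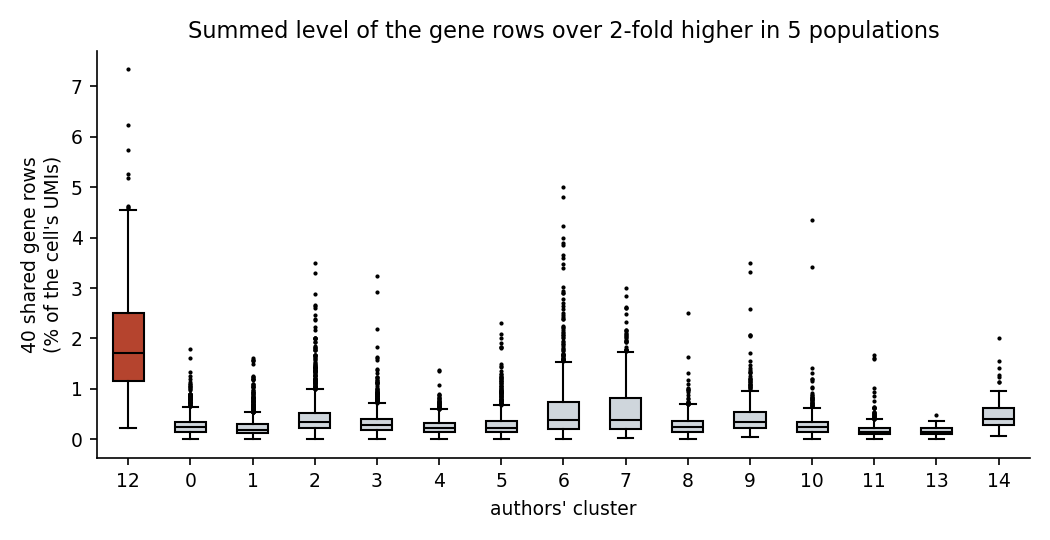
Percent of each cell's UMIs (y axis) in the 40 gene rows that were more than 2-fold higher in cluster 12 in all 5 populations, by authors' cluster (x axis). Boxes show quartiles and medians, whiskers reach 1.5 times the interquartile range, and dots are cells beyond; the median was 1.72% in cluster 12 and 0.255% over all other cells.

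By summed expression within the same populations, the clusters nearest to cluster 12 were 5 and 0, at root-mean-square log2 ratios of 0.78 and 0.82. Both were present in all 5 populations. Cluster 3 was at 0.77, but over 3 populations only. α recovery was 79.0% in cluster 12, against 69.0% in cluster 5 (66.0% to 72.0%) and 58.0% in cluster 0 (55.4% to 60.4%). Within CD25+ TRP it was 85.7% in cluster 12 and 73.1% in cluster 5 (69.5% to 76.5%), and the intervals did not overlap. In the other 4 populations cluster 12 was higher than cluster 5 but the intervals overlapped. In Foxp3lo TRP, for example, it was 76.1% in cluster 12 (67.0% to 83.8%) and 61.3% in cluster 5 (51.4% to 70.6%). Against cluster 0 the intervals were apart in CD4 SP, CD25+ TRP, Foxp3lo TRP and CD73+ Treg and overlapped in CD73- Treg. Within Foxp3lo TRP cluster 0 was at 58.2% (54.7% to 61.7%). Median UMIs were 2679 in cluster 12, 3252 in cluster 5 and 1998 in cluster 0.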

How the data were processed

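Gene expression, hashtag and TCRα-enriched libraries came from 1 pool of cells with the 10x Genomics 5′ v2 kit, per the labels' protocols, and the 3 samples are these library types. Tools listed in the submitters' processing notes are Seurat 3.1.1 and Cell Ranger 3.1.0, with GRCm38 and mm10 as builds; their settings are not given in the labels. The authors deposited UMI counts for 14790 gene rows (14626 with a UMI, 34190869 UMIs in all) and a matrix on a natural log scale. Its entries equal ln(1 + 10000 × count / total count of the cell) within 6.2e-15, and it served as an alternative only. The authors also deposited a hashtag class and cluster number per cell, and a table of 21598 TCR contigs in 12771 barcodes. Cells tagged Treg, with no mention of CD73, were taken to be CD73- Treg. Contigs were joined by barcode; 7379 cells of the matrix had one, 287 of them in cluster 12. CDR3α equalled the authors' α table in 6982 of 6982 cells with 1 productive α chain. The number of per-sample columns without a sample was 0.

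Shares have exact Clopper-Pearson 95% intervals. Other cells were weighted to the population make-up of cluster 12, with 95% intervals from binomial variances. For a count of 0, the share of 3 cells is given as the limit. Expected numbers of gene rows and CDR3α at a fixed depth were computed exactly. Log2 ratios used summed counts scaled to CPM with a prior of 1 CPM, and their counting part is the Poisson expectation. The scripts were tested on simulated data. The CDR3α named were the 5 most frequent, and the TRAJ segments those at 5% or more or with intervals apart. No gene could be named, since the rows carry no identifier; the planned rules for named genes and markers were not applied. The nearest clusters were taken among those with 20 or more cells in at least 4 populations, a choice made after seeing the data. Cluster 12, its comparisons and the lists were chosen with earlier results of these data known. TRAJ and TRAV coordinates and germline TRAJ sequences are from GENCODE M21 (GRCm38). Tools were Python 3.11.15, numpy 2.4.6, scipy 1.17.1, pandas 2.3.3, matplotlib 3.10.9 and edgeR 4.0.16, the last for TMM factors only.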

Additional observations from a re-analysis of the deposited data

How the results depend on the processing

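No paired analysis was possible because each population was sorted once and the results come from no test, and no replicate could be left out. Of the 62 alternative values for the main results, 52 were called the same and 10 moved. The limits differed between kinds of value, such as the counting interval for a share or 1.5 times for a count. Only the difference in α recovery could change sign, and it did not. This tally leaves out the order of the overlaps and the balance of higher and lower gene rows, which turned with some settings. With cells of exactly 1 productive α chain only, the share in cluster 12 was 9.45% for Foxp3lo TRP and 4.92% for CD73+ Treg. The difference in α recovery was 15.3 percentage points with UMI quartiles also weighted and 13.4 without clusters 3 and 9, both chosen after seeing the data. Cells with 2 chains were 3.30% in cluster 12 and a weighted 3.06% in the other cells without the top 5% of cells by UMIs. The leading CDR3α was at 17.5% in CD4 SP alone, also chosen after seeing the data. With each CDR3α counted once and no weighting by population, 1 TRAJ segment, TRAJ26, had intervals apart. None of the 3 that were apart by cells (TRAJ7, TRAJ23 and TRAJ57) did. The Morisita-Horn index with CD73- Treg was 0.418, below the 0.494 with CD4 SP by the same index; the Morisita index and its alternatives ranked these populations differently. Mean UMIs were 2969, and 349 gene rows were expected at 500 UMIs. The weighted root-mean-square log2 ratio was 0.57 with a prior of 10 CPM, 0.82 with rows from 20 CPM and 1.12 with no filter, where low counts weigh more. With rows from 20 CPM, 52 gene rows were higher and 2 lower in all 5 populations, and with no filter 57 and 106. With no filter, lower rows outnumbered higher ones in all 5 populations. In CD73- Treg they also did so with rows from 20 CPM (783 higher and 1012 lower) and without the top 5% of cells (333 and 365). The 14 CD73- Treg and 40 CD4 SP cells with a chain limit what these populations can show.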
